A study of Homo sapiens with 12 samples.

Results

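The comparison described here is the effect of glucose on RNA levels of MDA-MB-231 cells over both levels of the drug cariporide, with 6 libraries at 5 mM glucose set against 6 at 10 mM. MDA-MB-231 is an established human line of triple-negative breast cancer with a mesenchymal phenotype. All 12 libraries of the series entered it: 3 of NG (10 mM glucose), 3 of CAR (10 mM glucose with 25 µM cariporide), 3 of LG (5 mM glucose) and 3 of LGCAR (5 mM glucose with 25 µM cariporide). The cells of all 4 groups were the same line without a genetic change, kept for 48 h in RPMI medium with serum. Cariporide entered the model as an additive factor, so that each gene had 1 glucose effect, and 15104 of the 40929 genes in the tables had enough counts to be tested. A library here is 1 deposited sample, and the labels do not say whether the 3 libraries of 1 group were separate cultures. The p-values then cover only the spread between these libraries, which may be technical.

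Glucose is read by cells through its first phosphorylated product. Glucose 6-phosphate sends the factors MondoA and ChREBP, with their partner MLX, to carbohydrate response elements, and TXNIP and ARRDC4 are their best known targets in cancer cells. Both encode alpha-arrestins that pull glucose transporters from the cell surface, which makes them part of a known feedback on glucose uptake. Cariporide is an inhibitor of sodium-proton exchange, by which cells export protons made by glycolysis. Other programs known to follow nutrient supply are the unfolded protein response, which serves the glycoproteins folded in the endoplasmic reticulum, the ATF4 program of amino acid supply, ribosome production, and the lysosome.

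Values are given in CPM, counts scaled by library size with TMM factors, and differences as log2 fold changes of 5 mM against 10 mM, negative where RNA was lower at 5 mM and printed with their standard error (SE). A gene was called where edgeR's quasi-likelihood test gave an adjusted p under 0.05 over all tested genes. A rule by which some genes were named required that their 6 and 6 CPM values did not overlap. For these genes lack of overlap is no result of its own. Among them were CA12, DBP, FOS, FOSB, ID3, KLF10, MIR22HG, MUC5AC, MUC5B, OXTR, SMAD6, SOCS1 and TCAF2. Over all tested genes 4.38% had no overlap. The library totals ran from 18069004 to 24837409 counts. Within each group the libraries differed beyond counting error. Cytosolic ribosomal RNA took 8.68% ± 1.45 of the counts at 10 mM and 9.43% ± 1.18 at 5 mM (SD, n = 6 each), a difference of 0.755 percentage points (exact permutation test within drug levels, two-sided, p = 0.37, with 0.005 the smallest p it allows). The sign of that difference was not the same at both drug levels, with -0.828 points without and 2.34 with cariporide. For messenger RNA of the mitochondrial genome the shares were 6.07% ± 0.512 and 5.59% ± 0.605 (SD, n = 6 each; exact permutation p = 0.195, two-sided).

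Among the marker lists, that for the state of this line had the highest summed level at both glucose levels. Its 14 genes summed to 6960 to 7150 CPM at 10 mM and 7180 to 7380 CPM at 5 mM, with vimentin (VIM) at 1610 to 1860 CPM. Besides mesenchymal genes they include the keratins KRT8 (426 to 505 CPM) and KRT18 (331 to 434 CPM). In that list S100A4 and SNAI2 were called higher and KRT18 lower. The luminal genes PGR and ELF5, the basal keratin KRT5, the lymphocyte genes CD3E and NKG7 and the endothelial gene CLDN5 were at 0 in all 12 libraries. Other members of these lists were present. The luminal genes KRT19, XBP1 and ERBB2 had means of 294, 96.7 and 59.4 CPM, the basal gene MYLK 143 CPM, and the immune genes CD74 and CD68 297 and 61.7 CPM. Among the 9 basal and myoepithelial markers the summed level was 126 to 151 CPM at 10 mM and 155 to 192 CPM at 5 mM. Of the 4 tested, OXTR and MYLK were called higher. The summed levels of the luminal list (451 to 503 and 437 to 512 CPM), the immune list (317 to 389 and 338 to 431 CPM), the endothelial list (4.68 to 5.69 and 4.94 to 6.43 CPM) and the fibroblast list (23.6 to 27.8 and 27 to 29.8 CPM) overlapped between the glucose levels. In these 4 lists CDH1 and GATA3 (luminal), CD68 (immune) and COL1A2 (fibroblast) were called higher and none was called lower. In bulk RNA a change in the number of cells that make a transcript and a change in the amount per cell cannot be told apart.

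Lower glucose moved many genes by small amounts. Of the 15104 tested genes 1592 were called (10.5%), of which 854 were higher (5.65%) and 738 lower (4.89%) at 5 mM. The median size of a called change was 0.21 on the log2 scale, and the median over all tested genes was 0.0084. Past 1.5-fold were 64 called genes, and past 2-fold 15. Calls were more frequent among abundant transcripts, at 2.65%, 9.72%, 13.9% and 15.9% in 4 classes of equal size from low to high expression. The median size of a called change went the other way along these classes, from 0.578 to 0.283, 0.196 and 0.164. Of protein-coding genes 11.7% were called (1501 of 12856), and of long non-coding RNA genes 3.89% (65 of 1670). The number of calls rested in part on single libraries: it was 1060 without NG 2, 917 without NG 3, 960 without LG 1, 953 without LG 2, 2734 without LG 3 and 959 without LGCAR 1. Of all calls 53.6% were higher at 5 mM, a share that was 41.5% with scaling by library totals alone and 42.0% with no filter on low counts.

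The strongest decreases were those of the glucose-sensing alpha-arrestins. TXNIP was at 255, 259 and 278 CPM in NG, 263, 249 and 245 CPM in CAR, 40.6, 49.9 and 48.6 CPM in LG, and 84.2, 79.8 and 94.5 CPM in LGCAR. The 12 values thus formed 3 separate levels, with the 6 libraries at 10 mM together, LGCAR below them and LG lowest. ARRDC4 was at 6.30, 6.23 and 5.27 CPM in NG, 6.94, 5.33 and 5.67 CPM in CAR, 1.71, 1.09 and 1.69 CPM in LG, and 1.52, 1.63 and 1.91 CPM in LGCAR, so that only the glucose level separated its libraries. TXNIP (chr1:145992435-145996579, GRCh38) fell on the log2 scale by the most of the named genes (-2.02 ± 0.173 SE, edgeR adjusted p = 1.69e-04). ARRDC4 (chr15:97960703-97973833) came next (-1.90 ± 0.122 SE, edgeR adjusted p = 4.83e-08). TXNIP was the 1 gene of 15104 (0.00662%) whose glucose effect was called different between the drug levels: -2.51 without and -1.55 with cariporide, a difference of 0.96 (SE 0.105, edgeR interaction test, adjusted p = 0.00138). By the same test 472 of the 15104 genes had an unadjusted p under 0.05, a share below the 0.05 that chance alone would give. DESeq2 called 5 genes. With the ribosomal RNA share added to the model the difference for TXNIP was 1.0 but missed the threshold (edgeR adjusted p = 0.0595). Under all other alternatives tried the adjusted p ran from 1.30e-13 to 0.0105.

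The 250 bases before the start sites of both genes are shown for their letters that match the carbohydrate response element or its core. The element searched was CACGNG, 5 free bases and CACGNG again, and the E-box CACGTG is its single core. The sequences are from RefSeq (GRCh38.p14). The capitals mark the match to the full carbohydrate response element in TXNIP (chr1:145996580-145996829, minus strand) and to the E-box in ARRDC4 (chr15:97960453-97960702, plus strand).
TXNIP: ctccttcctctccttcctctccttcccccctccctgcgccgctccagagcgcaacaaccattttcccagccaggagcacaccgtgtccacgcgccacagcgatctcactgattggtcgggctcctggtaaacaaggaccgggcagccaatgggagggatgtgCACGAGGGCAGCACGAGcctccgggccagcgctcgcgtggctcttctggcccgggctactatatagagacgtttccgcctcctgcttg
ARRDC4: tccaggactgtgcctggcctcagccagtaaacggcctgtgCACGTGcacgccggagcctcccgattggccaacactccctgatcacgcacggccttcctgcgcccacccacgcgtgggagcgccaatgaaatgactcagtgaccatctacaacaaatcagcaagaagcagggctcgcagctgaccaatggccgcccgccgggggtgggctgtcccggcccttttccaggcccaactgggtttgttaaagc
The TXNIP match lies at bases -88 to -72 and the ARRDC4 match at -210 to -205, with the first transcribed base counted as 0. On either strand, the full element was found in 20 of 27305 promoter windows of 300 bases (0.0732%) and in 16 of the 11630 windows of tested genes (0.138%). Those 16 included 2 of 609 genes called lower at 5 mM, TXNIP and P4HA1, a collagen hydroxylase, and 0 of 671 called higher. The E-box, which the full element can overlap, was in 9.9% of the windows of tested genes, in 10.7% of those called lower and in 11.6% of those called higher.

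The other tested members of the list of MondoA and ChREBP targets were not of 1 direction. Of 13 tested genes, 3 fell and 2 rose, with a list median of -0.09. KLF10, a zinc finger repressor and early target of TGF-beta, had 52.4 to 55.4 CPM (median 55.0) at 10 mM and 32.1 to 40.7 CPM (median 36.0) at 5 mM and fell (-0.59 ± 0.0417 SE, edgeR adjusted p = 1.67e-07). PPP1R3B, which directs protein phosphatase to glycogen, rose by 0.42 and PFKFB2, an enzyme that sets the level of fructose 2,6-bisphosphate, by 0.28. The count of rises was 1 without NG 3, LG 1, LG 2 or LGCAR 1, and the list median was -0.05 without CAR 1 and -0.05 with 5 CPM required. None of 11 other alpha-arrestins and members of the MYC, MAX and MLX network was called by edgeR, with 3 at an unadjusted p under 0.05. There was 1 rise in LG against NG by edgeR, and in the additive model by DESeq2, with the ribosomal RNA share added, as the mean of both contrasts and without CAR 1. Without LG 3 there were 1 rise and 1 fall.

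**Figure D1:**
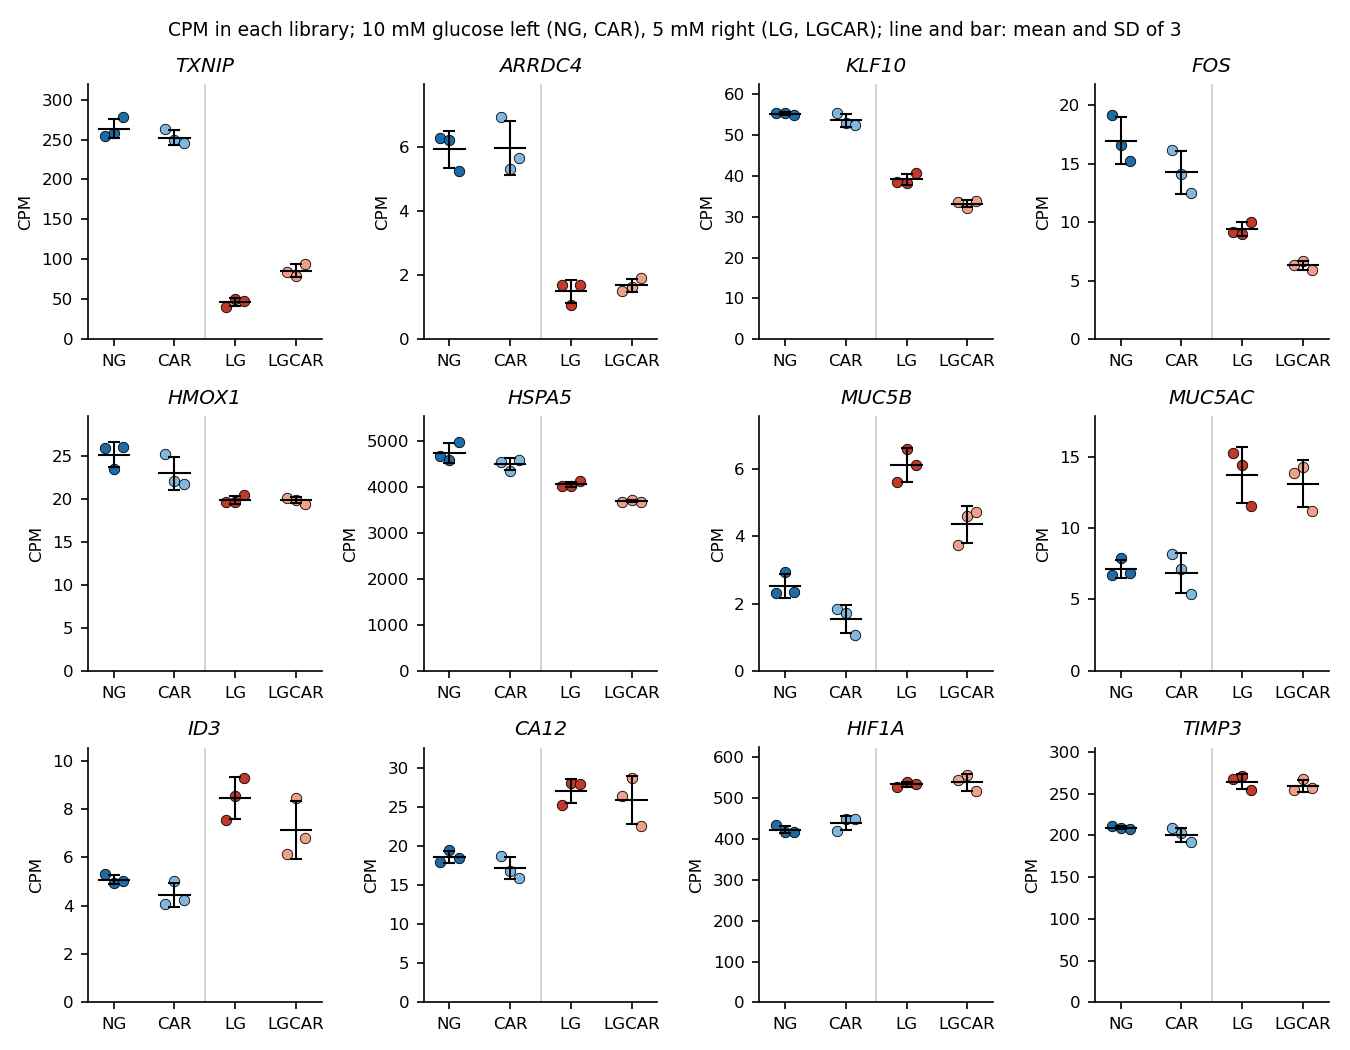
CPM of 12 named genes (y axis, from 0, a scale for each gene) in each library (points) of the groups NG, CAR, LG and LGCAR (x axis), with the mean and SD of 3. The libraries at 5 mM, right of the grey line, lie apart from all those at 10 mM in each of the 12 genes. The genes were chosen with their values known, most of them by a rule that required this, and 4.38% of all tested genes had no overlap. For TXNIP the LGCAR libraries also lie above the LG libraries.

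Immediate-early genes, which are transcribed within minutes of a growth signal, were divided. The AP-1 subunit FOS had 12.5 to 19.1 CPM (median 15.7) at 10 mM and 5.95 to 10.1 CPM (median 7.87) at 5 mM, without overlap (chr14:75278828-75282230, -1.0 ± 0.0843 SE, edgeR adjusted p = 2.42e-06). FOSB, a relative of FOS, had 4.72 to 8.24 CPM (median 5.16) at 10 mM and 2.07 to 4.28 CPM (median 3.81) at 5 mM, where the highest value at 10 mM was that of NG 1 (-0.66 ± 0.126 SE, edgeR adjusted p = 0.00309). Of 34 tested immediate-early and ERK feedback genes 3 fell (FOS, FOSB and IER2) and 7 rose (DUSP4, DUSP5, FOSL2, KLF6, NR4A2, PHLDA1 and SPRY2), and the list median was 0.05. That median ran from 0.0092 without LG 3 to 0.0775 without CAR 1. It was 0.11 without cariporide, with 6 rises and 1 fall, and -0.01 with it, with 0 rises and 4 falls. The interaction test of edgeR called none of these genes, so these counts do not show a difference between the drug levels. DUSP5, a nuclear phosphatase of ERK, had 106 to 124 CPM (median 112) at 10 mM and 121 to 154 CPM (median 131) at 5 mM with overlap between the levels (0.24 ± 0.0409 SE, edgeR adjusted p = 0.00147). In percent, 20.6% of the listed genes rose and 8.82% fell, beside 5.65% and 4.89% of all tested genes. Without LG 3 the count of falls was 8.

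Heat shock genes moved in 1 direction. Of 21 tested chaperones, co-chaperones and their regulators 13 fell and none rose, and all 21 log2 fold changes were negative, from -0.29 to -0.02 with a median of -0.17. The stress-inducible HSPA1A had 105 to 123 CPM (median 116) at 10 mM and 91.0 to 101 CPM (median 96.7) at 5 mM (-0.27 ± 0.0351 SE, edgeR adjusted p = 1.14e-04). HSPA1B had 375 to 433 CPM (median 401) at 10 mM and 323 to 352 CPM (median 337) at 5 mM (-0.24 ± 0.0316 SE, edgeR adjusted p = 1.29e-04). Neither gene's ranges overlapped, but the pair is nearly identical in sequence and the split of their reads is uncertain. Of the exon bases of HSPA1B 36.5% also belong to a second gene of that strand. STIP1, which links HSP70 to HSP90, had 291 to 325 CPM (median 306) at 10 mM and 258 to 286 CPM (median 270.4) at 5 mM (-0.18 ± 0.0331 SE, edgeR adjusted p = 0.00218). The other members called lower were AHSA1, BAG3, CHORDC1, DNAJA1, DNAJB1, FKBP4, HSPA8, HSPD1, HSPE1 and HSPH1, and with each library left out in turn 10 to 15 members were called lower.

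Chaperones of the endoplasmic reticulum gave many falls as well. In the list of the unfolded protein response 10 of 23 genes fell and none rose, with a median of -0.11. HSPA5 (BiP), the main HSP70 of the organelle and the most abundant of the named genes, had 4346 to 4977 CPM (median 4587) at 10 mM and 3680.0 to 4122 CPM (median 3875) at 5 mM (chr9:125234853-125241343, -0.25 ± 0.0374 SE, edgeR adjusted p = 4.08e-04). HYOU1, its nucleotide exchange factor, had 798 to 838 CPM (median 821) at 10 mM and 666 to 710.0 CPM (median 681) at 5 mM (-0.26 ± 0.0304 SE, edgeR adjusted p = 4.36e-05). In both genes the 6 libraries at 5 mM lay below all 6 at 10 mM. SYVN1, the ubiquitin ligase that clears misfolded proteins, fell (-0.19 ± 0.0347 SE, edgeR adjusted p = 0.00220) and was called at neither drug level alone. The remaining falls were those of DNAJB11, DNAJB9, HERPUD1, HSP90B1, PDIA4, SDF2L1 and SEC61B, and 8 to 14 members were called lower with each library left out in turn.

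Promoters of both chaperone groups are shown because their elements are known by sequence (RefSeq, GRCh38.p14). The endoplasmic reticulum stress element is CCAAT, 9 free bases and CCACG. The heat shock element is GAA, TTC and GAA with 2 free bases between neighbours. In HSPA5 (chr9:125241344-125241593, minus strand) the capitals mark the first element at bases -66 to -48. In CHORDC1 (chr11:90223050-90223299, minus strand), an HSP90 co-chaperone chosen after its value was seen, they mark 3 overlapping matches of the second at -60 to -38.
HSPA5: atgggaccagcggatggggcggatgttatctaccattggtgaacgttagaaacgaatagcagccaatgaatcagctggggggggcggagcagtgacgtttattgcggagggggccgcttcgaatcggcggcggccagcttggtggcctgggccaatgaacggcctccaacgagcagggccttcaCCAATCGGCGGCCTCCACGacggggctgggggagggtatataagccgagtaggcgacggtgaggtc
CHORDC1: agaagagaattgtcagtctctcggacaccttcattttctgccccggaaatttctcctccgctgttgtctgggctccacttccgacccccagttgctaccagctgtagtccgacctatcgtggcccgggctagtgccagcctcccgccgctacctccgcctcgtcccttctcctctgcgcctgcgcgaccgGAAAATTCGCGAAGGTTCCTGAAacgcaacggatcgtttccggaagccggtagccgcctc
Searched on both strands, the first element was in 0.0806% of all windows and in 0.12% of those of tested genes. It was in 4 of the 609 genes called lower (0.657%), which were SERP1, HSPA5, HSP90B1 and FICD, and in 0 of the 671 called higher. The second was in 0.487% of all windows and 0.378% of those of tested genes. It was in 6 called lower (0.985%), namely CHORDC1, DNAJA1, HSPA8, DNAJB6, CD83 and FBXW10B, and in 5 called higher (0.745%).

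Many genes of amino acid supply fell. Among 27 targets of ATF4 and enzymes of amino acid synthesis 12 fell and 1 rose, and the median was -0.18. PSAT1, of serine synthesis, had 124 to 146 CPM (median 135) at 10 mM and 105 to 122 CPM (median 108) at 5 mM (-0.30 ± 0.0384 SE, edgeR adjusted p = 1.14e-04), and LG 3 was the highest of the libraries at 5 mM. ASNS, which makes asparagine, had 120.2 to 133 CPM (median 124) at 10 mM and 99.9 to 119 CPM (median 105) at 5 mM (-0.23 ± 0.0345 SE, edgeR adjusted p = 5.30e-04), and 44.6% of its exon bases also belong to a second gene of that strand. The factor ATF4 itself had a log2 fold change of -0.21 and was called, as were ATF3, ATF5, CTH, DDIT4, GPT2, PHGDH, PSPH, PYCR1 and VLDLR. The 1 rise, that of CEBPB, was lost without any 1 of NG 2, NG 3, CAR 3, LG 1, LG 2, LG 3, LGCAR 1, LGCAR 2 and LGCAR 3, with no filter and with no drug factor. With each library left out in turn 8 to 17 members were called lower.

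The transporters and enzymes that load amino acids followed in part. Of 18 amino acid transporters 4 fell and none rose: SLC3A2, the heavy chain of LAT1 and xCT, SLC1A5, the glutamine carrier, SLC6A9 and SLC38A9. SLC3A2 had 282 to 331 CPM (median 308) at 10 mM and 226 to 269 CPM (median 236) at 5 mM (-0.33 ± 0.0355 SE, edgeR adjusted p = 2.33e-05). SLC1A5 had 287 to 308 CPM (median 305) at 10 mM and 253 to 268 CPM (median 264) at 5 mM (-0.20 ± 0.0300 SE, edgeR adjusted p = 4.77e-04), and 23.8% of its exon bases face an antisense gene. Of 20 cytosolic aminoacyl-tRNA synthetases 6 fell (CARS1, GARS1, MARS1, TARS1, WARS1 and YARS1) and none rose. WARS1 had 196 to 220.4 CPM (median 208) at 10 mM and 165 to 192 CPM (median 176) at 5 mM (-0.24 ± 0.0338 SE, edgeR adjusted p = 3.19e-04), and MARS1 fell as well (-0.14 ± 0.0304 SE, edgeR adjusted p = 0.00587). The synthetase count was 3 without NG 3, CAR 3, LG 1, LG 2 or LGCAR 1, 10 without LG 3, and 2 with no drug factor.

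Genes that build ribosomes gave falls and no rise, and those of the ribosome's own proteins gave no call. Of 34 nucleolar and ribosome biogenesis genes 12 fell (BYSL, DKC1, FBL, GAR1, NOLC1, NOP16, NOP56, NOP58, PES1, RRS1, UTP4 and WDR12) and none rose, and 32 had a negative log2 fold change, with a median of -0.09. NOP56, a core protein of box C/D particles, had 117 to 133 CPM (median 119.9) at 10 mM and 93.8 to 113 CPM (median 97.5) at 5 mM, the highest of the latter being LG 3 (-0.29 ± 0.0435 SE, edgeR adjusted p = 4.24e-04). UTP4, a subunit of the small subunit processome, had 46.9 to 54.6 CPM (median 50.2) at 10 mM and 41.4 to 46.7 CPM (median 43.1) at 5 mM (-0.21 ± 0.0446 SE, edgeR adjusted p = 0.00579). The call count stayed at 9 to 15 with each library left out, and the list median was -0.12 without LG 3. Of 51 cytosolic ribosomal protein genes none was called by edgeR and 11 had an unadjusted p under 0.05, with a median of -0.08 and 50 negative values. Yet 21 were called lower without LG 3, 4 without NG 1, 3 by DESeq2, 2 with no filter on low counts and 1 with RLE factors, library totals, 5 CPM required or ribosomal RNA genes left out. The median was -0.05 without CAR 1. Libraries of a group also varied more in these genes: the SD of a library's median log2 level over the list was 0.0927 within groups, against 0.0204 for the biogenesis list.

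Among nuclear genes of the mitochondrion, those of its ribosome gave falls and no rise. Of 40 mitochondrial ribosomal protein genes 6 fell (MRPL1, MRPL4, MRPS11, MRPS12, MRPS26 and MRPS9), none rose, and the median was -0.08. MRPS11 had 15.7 to 19.4 CPM (median 17.6) at 10 mM and 13.4 to 16.8 CPM (median 14.3) at 5 mM, with overlap (-0.28 ± 0.0617 SE, edgeR adjusted p = 0.00827). MRPS9 had 25.1 to 30.5 CPM (median 26.9) at 10 mM and 21.6 to 25.7 CPM (median 23.2) at 5 mM, also with overlap (-0.22 ± 0.0492 SE, edgeR adjusted p = 0.00951). Their count was 3 without NG 2, NG 3, CAR 1, CAR 2, LG 1, LG 2 or LGCAR 1, 13 without LG 3, and 3 with a replicate block, the ribosomal RNA share or no drug factor. Of 45 nuclear genes of the respiratory chain 3 fell (6.67%, near the 4.89% of all tested genes), CYCS, ATP5MC1 and COX5A. CYCS encodes cytochrome c (-0.23 ± 0.0424 SE, edgeR adjusted p = 0.00254), and ATP5MC1 a ring subunit of ATP synthase (-0.18 ± 0.0525 SE, edgeR adjusted p = 0.0366). That count was 1 without NG 2, NG 3, CAR 1, LG 1, LG 2 or LGCAR 2, and also with a replicate block, with the ribosomal RNA share in the model or with no drug factor, and ATP5MC1 missed the threshold without each of these libraries. None of the 13 genes of the mitochondrial genome was called by edgeR in the additive model and 3 had an unadjusted p under 0.05. There were 2 falls without NG 1, by DESeq2 and as the mean of both contrasts, 5 without LG 3 and 1 with the ribosomal RNA share in the model. In LGCAR against CAR edgeR called COX3 and CYTB lower (adjusted p = 0.0472 and 0.0447). The median of the 13 was 0.01 without and -0.21 with cariporide, and the interaction test of edgeR called none of them. The mitochondrial share of counts was lower in LGCAR than in CAR by 1.07 points, which restates the counts of these same 13 genes.

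In the cell cycle, the falls lay among genes of S phase entry. Of 39 DNA replication and G1/S genes 9 fell (CCNE1, CCNE2, CDC25A, CDC6, FEN1, MCM10, PCNA, PRIM1 and RRM2), none rose, and the median was -0.10. CDC25A, the phosphatase that activates CDK2, had 29.2 to 30.8 CPM (median 29.9) at 10 mM and 22.4 to 26.8 CPM (median 24.9) at 5 mM, without overlap (-0.28 ± 0.0427 SE, edgeR adjusted p = 4.85e-04). RRM2, the regulated subunit of ribonucleotide reductase, had 114 to 128 CPM (median 124) at 10 mM and 93.8 to 110.4 CPM (median 101) at 5 mM (-0.27 ± 0.0406 SE, edgeR adjusted p = 4.17e-04), with 20.2% of its exon bases inside a second gene of that strand. The count was 5 without NG 3. Of 29 mitosis and G2/M genes 1 rose and none fell, a share of 3.45% beside 5.65% of all tested genes. Their median was 0.03, and 0.02 without NG 1. CDC25B, the G2 phosphatase of the same family, had 119 to 129.8 CPM (median 123) at 10 mM and 129.6 to 145 CPM (median 135) at 5 mM, with overlap (0.14 ± 0.0339 SE, edgeR adjusted p = 0.0128). Its call was lost without NG 2 and with scaling by library totals alone. The list's count was 2 without CAR 1 and by DESeq2 and 3 without LG 3. None of 13 replication-dependent histone genes was called by edgeR or DESeq2 in the additive model, and 1 had an unadjusted p under 0.05 by edgeR. Their median by edgeR was -0.07 in that model, and -0.003 without LG 3. It was -0.23 without and 0.22 with cariporide, where edgeR called H2BC21 higher in LGCAR than in CAR (0.47, adjusted p = 0.0428). The interaction test of edgeR called none of the 13 genes. The ribosomal RNA share also differed with opposite signs at the drug levels (-0.828 and 2.34 points), and its part in these medians was not tested.

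A list of 18 cell cycle brakes, repair and death genes, which does not hold all genes of these roles, gave 2 falls and 1 rise. Shares were 11.1% lower and 5.56% higher, beside 4.89% and 5.65% of all tested genes. CDKN1A (p21), the inhibitor of cyclin-dependent kinases, had 94.1 to 105 CPM (median 101) at 10 mM and 76.9 to 91.1 CPM (median 82.8) at 5 mM and fell (-0.26 ± 0.0421 SE, edgeR adjusted p = 9.31e-04), as did AEN, a nuclease. BBC3 (PUMA), a pro-death BCL2 relative, had 10.4 to 11.9 CPM (median 11) at 10 mM and 13.1 to 15.9 CPM (median 14.6) at 5 mM and rose (0.39 ± 0.0581 SE, edgeR adjusted p = 4.44e-04). The count of falls was 4 without LG 3 and 1 with no drug factor, and that of rises 2 with the ribosomal RNA share in the model. The list median, -0.03, was -0.07 without LG 3 and above 0 without CAR 1 (0.0057) and with the ribosomal RNA covariate (0.0026).

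**Figure D2:**
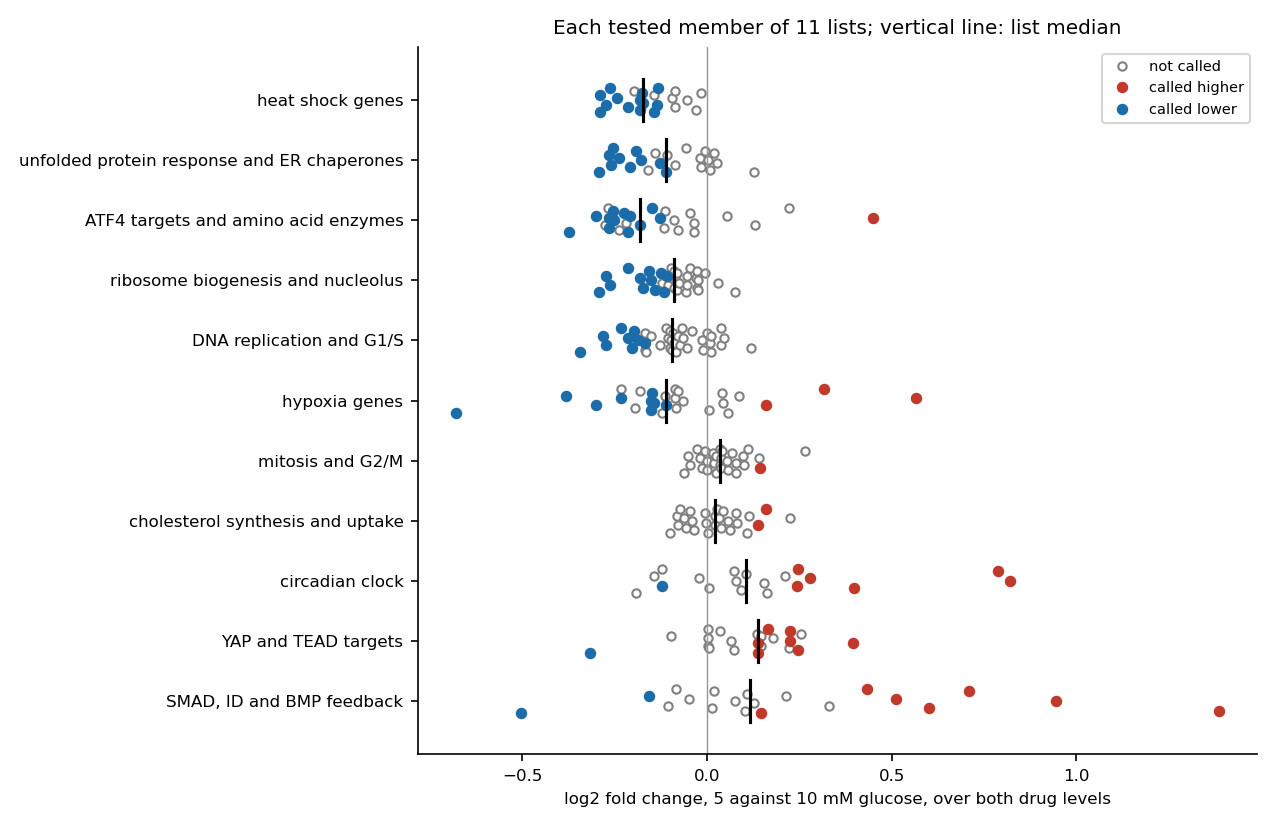
The log2 fold change of 5 against 10 mM glucose (x axis) of each tested member of 11 gene lists (rows), with called members filled and the list median as a vertical line. Heat shock genes lie wholly left of 0, the mitosis list straddles 0 with 1 call, and the called SMAD, clock and YAP members lie mostly to the right.

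More hypoxia genes fell than rose, and the RNA of the factor that drives them was among the rises. HIF1A, the oxygen-regulated subunit of HIF-1, had 418 to 449 CPM (median 426) at 10 mM and 517 to 558 CPM (median 537) at 5 mM, without overlap (chr14:61695513-61748258, 0.32 ± 0.0325 SE, edgeR adjusted p = 1.53e-05). Of 27 listed genes 9 fell (ANGPTL4, BNIP3, BNIP3L, JMJD6, KDM3A, P4HA1, PLOD2, SLC2A1 and VEGFA) and 3 rose (HIF1A, EPAS1 and CA12), with a median of -0.11. Shares were 33.3% lower and 11.1% higher, beside 4.89% and 5.65% of all tested genes. CA12, a membrane carbonic anhydrase that acidifies the cell's surroundings, had 16.0 to 19.5 CPM (median 18.2) at 10 mM and 22.5 to 28.7 CPM (median 27.2) at 5 mM and ran against the list (chr15:63321378-63381846, 0.56 ± 0.0594 SE, edgeR adjusted p = 1.81e-05). With each library left out, 7 to 13 members were called lower and 3 higher. The count of falls was 12 with scaling by library totals alone and by DESeq2.

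Glycolysis genes gave more falls than rises, and some are hypoxia genes too. In the list of glucose uptake and glycolysis 8 of 31 fell (LDHA, PDK1, PFKFB3, PFKFB4, PGAM1, PGK1, SLC16A3 and SLC2A1), 1 rose (SLC2A12), and the median was -0.04. In percent, 25.8% fell and 3.23% rose, beside 4.89% and 5.65% of all tested genes. PFKFB3 and PFKFB4 make fructose 2,6-bisphosphate, the activator of phosphofructokinase. PFKFB4 had 31.1 to 36.4 CPM (median 34.4) at 10 mM and 23.6 to 31.3 CPM (median 26.8) at 5 mM, with overlap (-0.33 ± 0.0517 SE, edgeR adjusted p = 6.21e-04). PFKFB3 had 61.1 to 66.8 CPM (median 63.2) at 10 mM and 49.3 to 57.5 CPM (median 53.6) at 5 mM, without overlap (-0.25 ± 0.0374 SE, edgeR adjusted p = 4.85e-04). The fall count was 5 without NG 3, LG 2 or LGCAR 1 and with a replicate block. The rise count was 2 without CAR 1, with 5 CPM required, by DESeq2 and with the ribosomal RNA share in the model. The median was -0.08 without LG 3 and -0.03 without CAR 1.

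The pathways that branch from glycolysis gave few calls, in both directions. Of 23 genes of the pentose phosphate, hexosamine and glycogen pathways 2 fell (GFPT2 and UAP1) and 2 rose, PYGB among them. These shares of 8.7% each way lie near the 4.89% lower and 5.65% higher of all tested genes. UAP1, which completes UDP-GlcNAc, had 146 to 161 CPM (median 150.3) at 10 mM and 133 to 141 CPM (median 136) at 5 mM (-0.16 ± 0.0311 SE, edgeR adjusted p = 0.00356). PYGB, the brain glycogen phosphorylase, had 143 to 161 CPM (median 152) at 10 mM and 151 to 181 CPM (median 167) at 5 mM, with overlap (0.14 ± 0.0390 SE, edgeR adjusted p = 0.0329). PYGB's call was lost without any of 8 libraries (NG 2, NG 3, CAR 2, LG 1, LG 2, LGCAR 1, LGCAR 2, LGCAR 3). The list's rises were 0 without NG 2, NG 3, LG 1, LG 2, LGCAR 1, LGCAR 2 or LGCAR 3, 1 without CAR 2 or CAR 3 and 4 without CAR 1. Its falls were 1 without NG 2, NG 3, CAR 2, LG 1, LG 2, LGCAR 1, LGCAR 2 or LGCAR 3. The rises were also 0 with no filter, a replicate block or no drug factor. Of 31 genes of pyruvate entry and the TCA cycle 4 rose (among them OGDH, PC and SUCLG2) and 1 fell (MPC2). As shares these were 12.9% and 3.23%, beside 5.65% higher and 4.89% lower of all tested genes. PC, pyruvate carboxylase, which refills the cycle, had 69.4 to 81.5 CPM (median 73.0) at 10 mM and 78.0 to 89.2 CPM (median 86.0) at 5 mM (0.20 ± 0.0418 SE, edgeR adjusted p = 0.00567), with overlap between the glucose levels. SUCLG2, of succinate-CoA ligase, rose with overlap as well (0.16 ± 0.0372 SE, edgeR adjusted p = 0.0109). The rises numbered 2 without NG 3, LG 1 or LGCAR 2. The fall was lost without NG 3, CAR 1, CAR 2, LG 1, LG 2, LGCAR 1 or LGCAR 2, with the ribosomal RNA share in the model and with no drug factor. There were 2 falls without NG 1 and 4 without LG 3.

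Lipid genes were called in both directions. Of 30 fatty acid genes 5 rose (ACACB, ACSS2, DGAT2, FASN and SREBF1) and 2 fell (PLIN2 and ACADVL). Shares were 16.7% higher and 6.67% lower, beside 5.65% and 4.89% of all tested genes. PLIN2, which coats lipid droplets, had 74.0 to 93.5 CPM (median 83.7) at 10 mM and 62.0 to 74.7 CPM (median 66.7) at 5 mM, with overlap (-0.30 ± 0.0394 SE, edgeR adjusted p = 1.23e-04). ACSS2, which makes acetyl-CoA from acetate, had 66.9 to 73.8 CPM (median 70.5) at 10 mM and 75.7 to 85.6 CPM (median 77.5) at 5 mM, without overlap, the highest being LGCAR 3 (0.16 ± 0.0400 SE, edgeR adjusted p = 0.0176). Its call was lost without NG 3, LG 2 or LGCAR 3. The rises depended on single libraries, with 1 left without NG 3 or LGCAR 1, 2 without LG 1 or LGCAR 3, 3 without LGCAR 2, 0 without LG 2 and 1 without NG 1 and LGCAR 3 together. There was 1 fall left without any 1 library other than NG 1 and LG 3, and with a replicate block, the ribosomal RNA share or no drug factor. Of 27 cholesterol genes 2 rose (7.41%, beside 5.65% of all tested genes) and none fell, both without overlap. Among them was LSS, lanosterol synthase (0.14 ± 0.0313 SE, edgeR adjusted p = 0.00947). The cholesterol list's median of 0.02 ran down to 0.0093 without LG 3 and to 0.002 with scaling by library totals alone, beside 0.0084 for all genes.

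Lysosomal genes rose more often than they fell. Of 42 lysosome and autophagy genes 8 rose (among them CTSD, FLCN, FNIP1, FNIP2, LAMP2, MITF and NPC1) and 3 fell (GABARAPL1, GLA and WIPI1), with a median of 0.05 that was 0.02 without CAR 3 and 0.07 without CAR 1. In percent, 19% rose and 7.14% fell, beside 5.65% and 4.89% of all tested genes. CTSD, the protease cathepsin D, had 975 to 1145 CPM (median 1094) at 10 mM and 1273 to 1436 CPM (median 1339.8) at 5 mM, without overlap (0.33 ± 0.0390 SE, edgeR adjusted p = 5.13e-05). Of its exon bases 41.7% also belong to a second gene of that strand and 15.8% face an antisense gene. NPC1, which exports cholesterol from lysosomes, had 172 to 184 CPM (median 174) at 10 mM and 198 to 220.0 CPM (median 212) at 5 mM, also without overlap (0.25 ± 0.0332 SE, edgeR adjusted p = 1.37e-04). FLCN, FNIP1 and FNIP2 encode the folliculin complex, which controls the lysosomal factor TFEB and its relative MITF. Rises numbered 7 to 9 with each library left out, and falls were 1 without NG 3, LG 1, LG 2, LGCAR 1 or LGCAR 3, with a replicate block and with the ribosomal RNA share in the model.

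Among 30 regulators of AMPK and mTOR 7 rose (IRS1, IRS2, PIK3C2B, PIK3CA, PRKAG2, RICTOR and TSC1) and 2 fell (AKT1S1 and PRKAB1). In percent, 23.3% rose and 6.67% fell, beside 5.65% and 4.89% of all tested genes. IRS2, an adaptor of the insulin receptor, had 42.6 to 52.8 CPM (median 48.4) at 10 mM and 52.0 to 65.5 CPM (median 61.4) at 5 mM, with overlap (0.31 ± 0.0590 SE, edgeR adjusted p = 0.00345). PIK3C2B, a class II lipid kinase, had 3.53 to 5.42 CPM (median 4.14) at 10 mM and 4.89 to 7.35 CPM (median 6.08) at 5 mM, with overlap (0.52 ± 0.10 SE, edgeR adjusted p = 0.00341). The rises numbered 12 without LG 3, and the falls 0 without LG 1, LG 2, LGCAR 1 or LGCAR 2 and 1 without NG 2, NG 3, CAR 1, CAR 2, CAR 3 or LGCAR 3. There was also 1 fall with a replicate block, the ribosomal RNA share, no drug factor or the mean of both contrasts.

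Genes that answer to BMP signals were among the largest rises. ATOH8, a helix-loop-helix factor induced by BMP, had 0.711 to 1.40 CPM (median 1.11) at 10 mM and 2.60 to 2.91 CPM (median 2.73) at 5 mM (chr2:85753991-85791383, 1.39 ± 0.146 SE, edgeR adjusted p = 1.81e-05). ID3, which keeps such factors from DNA, had 4.08 to 5.31 CPM (median 4.97) at 10 mM and 6.14 to 9.27 CPM (median 8.02) at 5 mM (0.71 ± 0.0905 SE, edgeR adjusted p = 1.14e-04). SMAD6, the inhibitory SMAD of that pathway, had 3.41 to 4.54 CPM (median 3.89) at 10 mM and 5.69 to 6.59 CPM (median 5.94) at 5 mM (0.60 ± 0.0891 SE, edgeR adjusted p = 4.17e-04). All 3 genes had no overlap between the glucose levels, at low expression. For ID3 and SMAD6 this was a condition of their choice. Of 20 listed genes 7 rose (these 3, ID1, ID2, SMAD9 and TGFB2) and 2 fell, among them NOG, a secreted BMP antagonist. The rises numbered 4 with 5 CPM required and without NG 2, NG 3, LG 1, LG 2, LGCAR 1, LGCAR 2 or LGCAR 3, and NOG was not called without NG 1, NG 2, NG 3, CAR 1, CAR 3, LG 1, LG 2, LGCAR 1 or LGCAR 2. There was 1 fall with limma-voom, the ribosomal RNA share, no drug factor, the mean of both contrasts or NG 1 and LGCAR 3 left out.

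The list of targets of YAP and TEAD, the effectors of the Hippo pathway, also holds YAP1 itself. It had a median of 0.14, with 20 of 22 values positive. Of the 22 genes 7 rose (AMOTL2, ANKRD1, ARHGEF17, CRIM1, LATS2, NUAK2 and YAP1) and 1 fell (IGFBP3). Shares were 31.8% higher and 4.55% lower, beside 5.65% and 4.89% of all tested genes. LATS2, the kinase that restrains YAP, had 47.9 to 54.0 CPM (median 50.3) at 10 mM and 55.1 to 62.3 CPM (median 59.7) at 5 mM, without overlap (0.22 ± 0.0417 SE, edgeR adjusted p = 0.00262). IGFBP3, a carrier of insulin-like growth factors, had 63.7 to 84.4 CPM (median 75.9) at 10 mM and 55.4 to 71.5 CPM (median 59.8) at 5 mM, with overlap (-0.32 ± 0.0529 SE, edgeR adjusted p = 0.00115). Rises numbered 4 without NG 2, and 2 fell without LG 3 and by DESeq2.

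Matrix proteases and their inhibitors moved both ways, with 5 rises (ADAM10, ADAM9, MMP15, TIMP2 and TIMP3) and 4 falls (among them MMP1, PLAT and PLAUR) in 18 tested genes. TIMP3, an inhibitor of metalloproteinases held in the matrix, had 192 to 211 CPM (median 208) at 10 mM and 254 to 272 CPM (median 262) at 5 mM, without overlap (0.35 ± 0.0320 SE, edgeR adjusted p = 4.03e-06). MMP1 is a collagenase, PLAT the tissue activator of plasminogen and PLAUR the urokinase receptor. Falls numbered 2 without NG 3, LG 1, LGCAR 1 or LGCAR 2, and the median of -0.03 changed sign with no filter on low counts (0.0019) and, to a value near 0, without NG 1 and LGCAR 3 together. It was -7.76e-05 without CAR 3.

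MUC5B and MUC5AC, gel-forming mucins secreted into mucus, both rose. MUC5B had 1.08 to 2.95 CPM (median 2.08) at 10 mM and 3.73 to 6.61 CPM (median 5.17) at 5 mM (chr11:1223066-1262172, 1.36 ± 0.123 SE, edgeR adjusted p = 4.03e-06). MUC5AC, its neighbour on the chromosome, had 5.38 to 8.16 CPM (median 6.97) at 10 mM and 11.2 to 15.3 CPM (median 14.0) at 5 mM (chr11:1157953-1201138, 0.94 ± 0.0987 SE, edgeR adjusted p = 2.33e-05). Neither gene overlapped between the glucose levels, a condition of their choice. The mean of MUC5B was 2.54 ± 0.357 CPM for NG and 1.55 ± 0.415 CPM for CAR, against 6.11 ± 0.502 CPM for LG and 4.35 ± 0.544 CPM for LGCAR (± SD of 3 libraries). Only 5 of 16 mucin genes were tested, and the third to rise was MUC1, of the cell membrane. MUC4 (-0.15, edgeR adjusted p = 0.243) and MUC20 (-0.49, adjusted p = 0.199) were not called. The list median of 0.37 was 0.13 with no filter on low counts.

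Clock genes rose in 6 cases of 19 (among them DBP, NPAS2, NR1D1, NR1D2 and PER1) and fell in 1 (CRY1), with a median of 0.11. Shares were 31.6% higher and 5.26% lower, beside 5.65% and 4.89% of all tested genes. DBP, an output factor of the clock, had 2.30 to 3.74 CPM (median 3.36) at 10 mM and 4.83 to 6.17 CPM (median 5.44) at 5 mM, without overlap (0.79 ± 0.114 SE, edgeR adjusted p = 3.44e-04), and 10.1% of its exon bases face an antisense gene. NPAS2, a partner of BMAL1, had 90.8 to 97.6 CPM (median 95.1) at 10 mM and 109 to 113 CPM (median 112) at 5 mM, without overlap and with LG 3 the lowest at 5 mM (0.24 ± 0.0303 SE, edgeR adjusted p = 8.99e-05). The fall of CRY1 was lost without NG 1, NG 2, NG 3, CAR 2, CAR 3, LG 1, LG 2, LGCAR 1 or LGCAR 2, with a replicate block, without NG 1 and LGCAR 3 together, with no drug factor and as the mean of both contrasts. There were 3 falls without LG 3. All libraries are from 1 time point.

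NF-kB targets gave 5 rises (BCL3, BIRC3, CXCL2, NFKBIA and TNFAIP3) and 3 falls (IL1B, NFKBIB and TNIP1) in 32 genes. Shares were 15.6% higher and 9.38% lower, beside 5.65% and 4.89% of all tested genes. TNFAIP3 (A20), an enzyme that ends NF-kB signalling, had 21.8 to 25.8 CPM (median 22.8) at 10 mM and 26.0 to 38.7 CPM (median 30.1) at 5 mM, without overlap (0.42 ± 0.0623 SE, edgeR adjusted p = 4.02e-04). BIRC3, an inhibitor of apoptosis, had 144 to 156 CPM (median 150.1) at 10 mM and 159.7 to 186 CPM (median 176) at 5 mM, likewise without overlap (0.22 ± 0.0382 SE, edgeR adjusted p = 0.00149). The list median was 0.07 without and -0.10 with cariporide, and the interaction test of edgeR called none of the listed genes. For TNFAIP3 the values were 0.58 and 0.26, a difference that was not called (edgeR interaction test, unadjusted p = 0.00613). Without LG 3 there were 8 falls, and with the ribosomal RNA share in the model 8 rises. Of 25 interferon-stimulated genes 2 rose (8%, beside 5.65% of all tested genes) and none fell. The 2 were STAT2 (0.14 ± 0.0381 SE, edgeR adjusted p = 0.0225) and RIGI, a sensor of viral RNA (0.15 ± 0.0357 SE, edgeR adjusted p = 0.0144). Both calls were lost without LG 2, that of STAT2 also without NG 2, NG 3, LG 1 or LGCAR 1, and 1 of the 2 with library totals as scaling or no filter. There was 1 fall without LG 3, with RLE factors, library totals, no filter, 5 CPM required, DESeq2 or ribosomal RNA genes left out.

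Antioxidant genes of the NRF2 list gave 4 falls (GCLC, GPX8, HMOX1 and SRXN1) and no rise in 29. The falls were 13.8% of the list, beside 4.89% of all tested genes. HMOX1, heme oxygenase 1, had 21.8 to 26.1 CPM (median 24.4) at 10 mM and 19.5 to 20.5 CPM (median 19.9) at 5 mM, without overlap (-0.28 ± 0.0502 SE, edgeR adjusted p = 0.00217). SRXN1, sulfiredoxin, had 97.7 to 109.8 CPM (median 102) at 10 mM and 89.9 to 95.6 CPM (median 93.5) at 5 mM (-0.15 ± 0.0330 SE, edgeR adjusted p = 0.00766). Of its exon bases 85.0% also belong to a second gene of that strand, so its own level is uncertain. Without LG 3 there were 7 falls and 1 rise.

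A list of 27 acid-base and ion transport genes gave 4 rises (among them ATP1B1, ATP2B4 and CA12) and 2 falls (SLC26A6 and SLC4A11). The shares were 14.8% higher and 7.41% lower, beside 5.65% and 4.89% of all tested genes. There was 1 fall without NG 3 or LG 1.

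**Figure D3:**
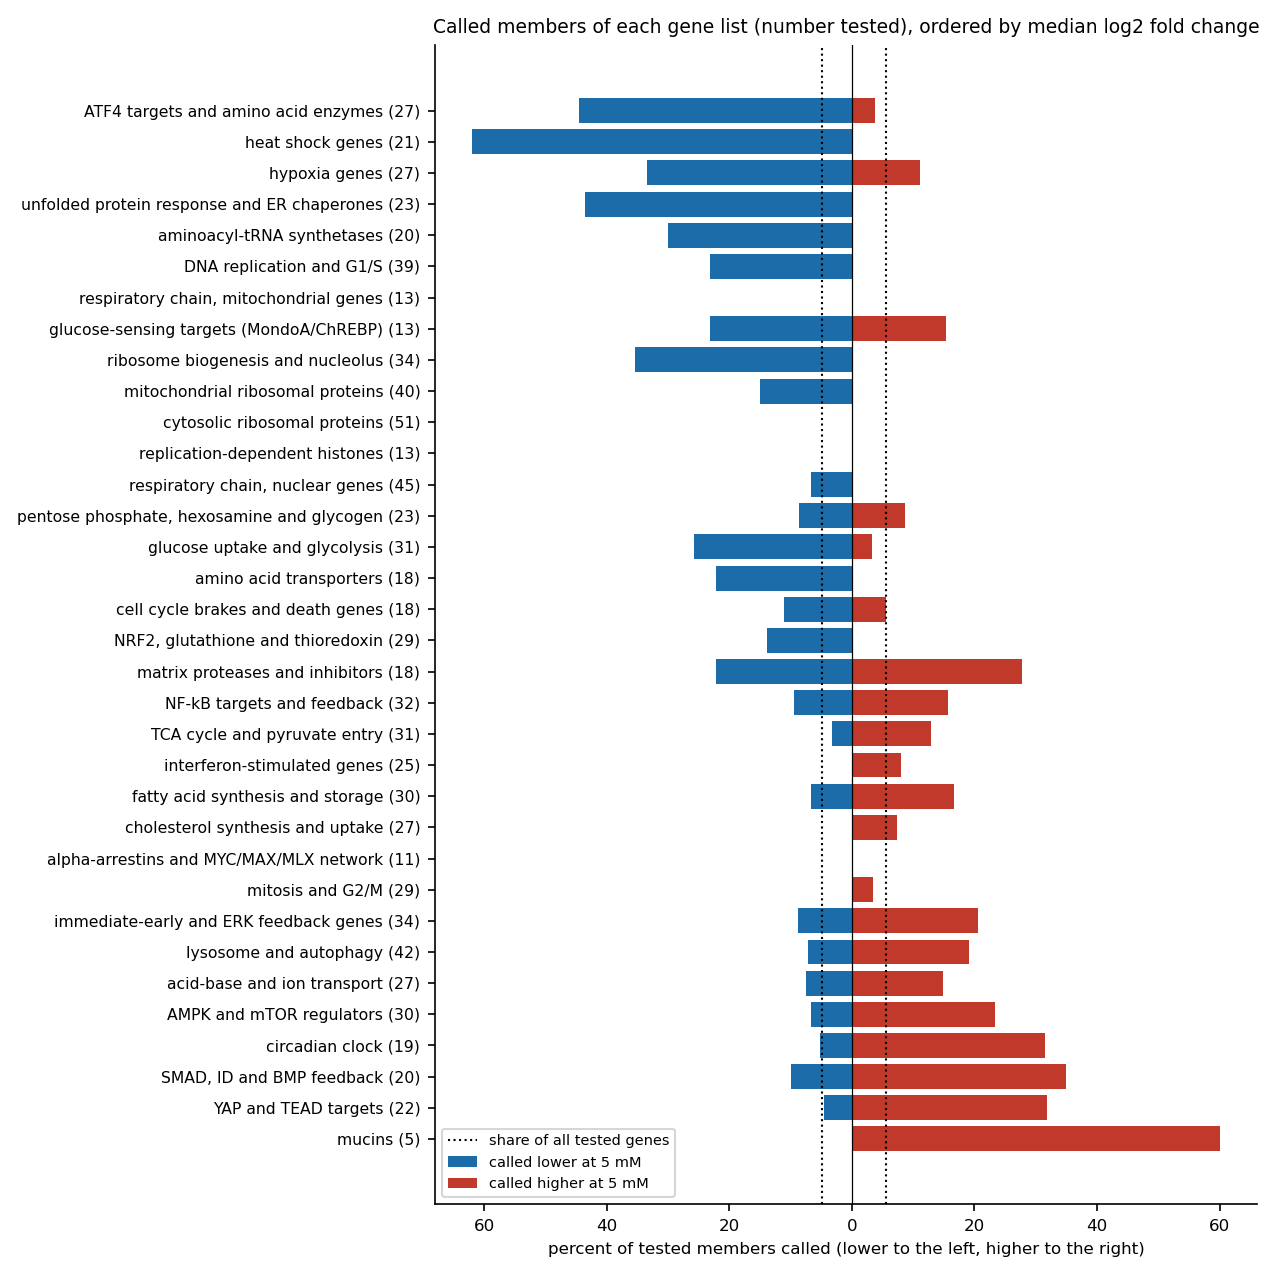
Percent of the tested members of 34 gene lists called lower (left) and higher (right) at 5 mM glucose, ordered by list median, with the number tested in brackets and the shares of all tested genes, 4.89% lower and 5.65% higher, as dotted lines. Chaperone, ATF4, ribosome biogenesis and hypoxia lists extend far to the left, and mucin, SMAD, clock and YAP lists to the right.

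In 9 of the 34 lists neither the share of rises nor that of falls passed 2 times that of all tested genes, and 4 of these 9 had no call. Among called genes of at least 5 CPM at 1 glucose level without overlap, several of the largest changes lay outside the 34 gene lists. MIR22HG and OXTR, which are among them, each changed by 1.47-fold, short of 1.5-fold. MIR22HG, the host transcript of miR-22, had 28.9 to 33.9 CPM (median 31.4) at 10 mM and 20.1 to 22.8 CPM (median 21.2) at 5 mM (-0.56 ± 0.0530 SE, edgeR adjusted p = 7.45e-06). TCAF2, a regulator of TRP channels, had 5.44 to 6.17 CPM (median 5.72) at 10 mM and 3.29 to 4.68 CPM (median 3.63) at 5 mM (-0.60 ± 0.0836 SE, edgeR adjusted p = 2.34e-04), but it has near-identical copies and its count is uncertain. Both fell, and lack of overlap was a condition of their choice. SOCS1, a feedback inhibitor of cytokine receptors, had 2.51 to 5.07 CPM (median 4.18) at 10 mM and 5.26 to 7.20 CPM (median 6.02) at 5 mM (0.64 ± 0.107 SE, edgeR adjusted p = 0.00104). OXTR, the oxytocin receptor and 1 of the basal markers, had 10.1 to 13.7 CPM (median 10.7) at 10 mM and 14.0 to 18.7 CPM (median 16.2) at 5 mM, the highest at 10 mM being NG 1 (0.56 ± 0.0715 SE, edgeR adjusted p = 1.14e-04). These 2 genes rose. OXTR was a small part of the basal markers' summed level, with a mean of 13.7 CPM over all libraries beside 143 CPM for MYLK.

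The effect at each drug level was tested in the same data with 1 mean for each group, where fewer libraries stand behind each contrast. LG against NG gave 261 calls (1.73%) and LGCAR against CAR 249 (1.65%). All 1592 genes of the additive model had the same sign at both levels, which their choice by the mean of both effects largely sets. Of these 108 were called at both, 140 only without and 126 only with cariporide, and 1218 at neither. Being called at 1 level and not at the other is not a difference between the levels, for which the interaction test called TXNIP alone. The counts at each level moved widely with 1 library left out. Without cariporide they ran from 83 to 466 (167 without NG 1, 98 without NG 2, 83 without NG 3, 466 without CAR 1, 88 without LG 1, 99 without LG 2, 173 without LGCAR 1). With cariporide they ran from 51 to 448 (127 without NG 2, 69 without CAR 3, 150 without LG 2, 448 without LG 3, 54 without LGCAR 1, 51 without LGCAR 2, 67 without LGCAR 3). With the ribosomal RNA share added to the model the counts were 586 and 18, beside the differences in that share of -0.828 and 2.34 points. Its part in the counts was not tested.

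The 6 libraries without and the 6 with cariporide have none in common, so each set could be fitted alone. The 6 libraries without cariporide gave 118 calls of 14663 genes (0.805%) and the 6 with cariporide 198 of 14708 (1.35%). Of the 14491 genes tested in both, 118 and 197 were called. Called in both were 50 genes, 42.4% of the former and 25.4% of the latter, and all 50 had the same sign. Of the 118 genes 115 had the same sign in the other fit (97.5%), and of the 197 genes 188 (95.4%), against 71.2% of all genes. Over all genes the log2 fold changes of both fits had Pearson's r of 0.346 and Spearman's rho of 0.49, given as a description, since genes are not independent and each scaling is shared within a fit. Rises called without cariporide had a median log2 fold change of 0.31 in the fit with cariporide against 0.42 in their own. For falls called without cariporide the values were -0.30 and -0.36. The same was not computed for genes called with cariporide.

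**Figure D4:**
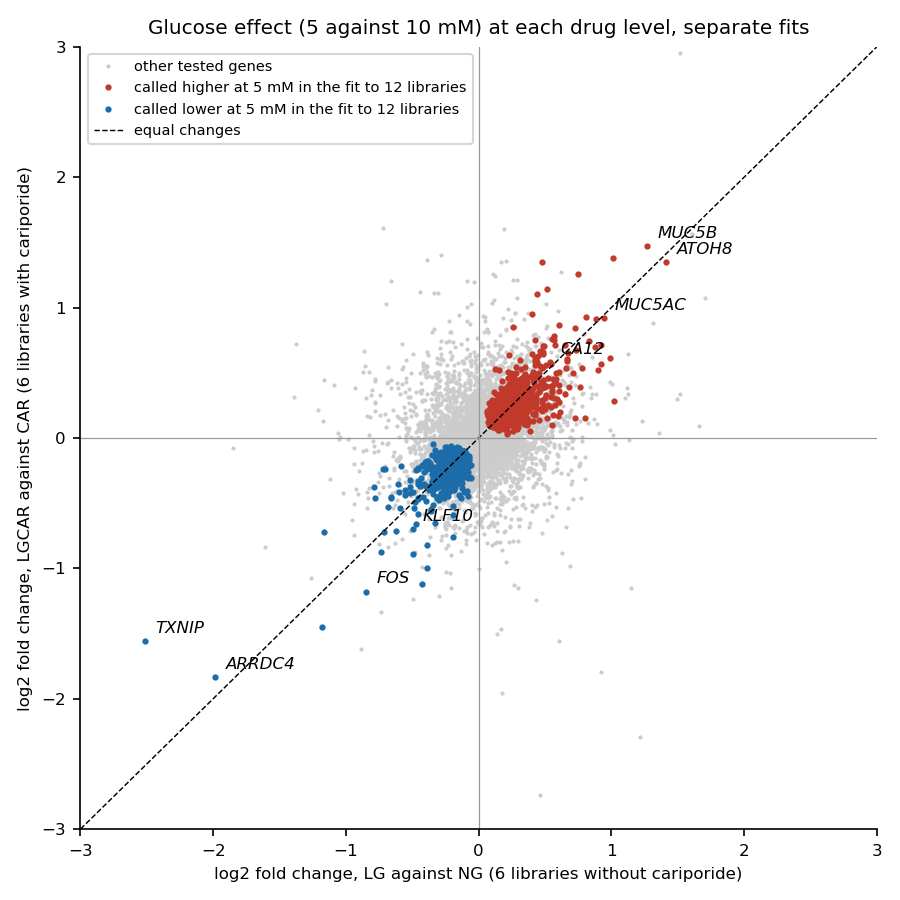
Log2 fold change of 5 against 10 mM glucose in the 6 libraries without cariporide (x axis) and in the 6 with it (y axis), fitted separately, for 14485 genes, with 6 more outside the axes. Genes called in the fit to all 12 libraries (red and blue) were chosen from the same libraries, which largely sets their place at the upper right and the lower left, and TXNIP lies above the dashed line of equal changes.

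For some genes only the 12 libraries together gave a call. Where the mean reached 5 CPM at 1 glucose level and the CPM ranges did not overlap, 300 genes were called in the additive model and at neither drug level, and the 5 with the smallest p were DOK3, BAK1, STIP1, SYVN1 and ZNF608. DOK3, an adaptor that dampens receptor signalling, had 7.84 to 11.8 CPM (median 9.69) at 10 mM and 6.21 to 7.30 CPM (median 7.03) at 5 mM (-0.48 ± 0.0860 SE, edgeR adjusted p = 0.00197). BAK1, a pore former of apoptosis, had 50.6 to 56.1 CPM (median 53.4) at 10 mM and 42.4 to 47.9 CPM (median 46.4) at 5 mM (-0.22 ± 0.0389 SE, edgeR adjusted p = 0.00197). ZNF608, a zinc finger protein, had 21.9 to 25.0 CPM (median 23.0) at 10 mM and 27.0 to 28.1 CPM (median 27.6) at 5 mM and rose (0.24 ± 0.0428 SE, edgeR adjusted p = 0.00222). Their log2 fold changes without and with cariporide were -0.48 and -0.49 for DOK3, -0.23 and -0.21 for BAK1, and 0.24 and 0.23 for ZNF608. Of the 1592 called genes 593 had no overlap between the 6 and 6 CPM values, 308 higher and 285 lower, and 999 overlapped. Over all tested genes 662 had none (4.38%), 340 higher (2.25%) and 322 lower (2.13%).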

How the data were processed

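RNA of MDA-MB-231 cells was sequenced in 12 libraries, made from total RNA (Trizol); per the labels' protocols the kit was NEBNext Ultra II Directional, which marks strand. The deposited values are whole-number counts per gene, 1 table for each library. GRCh38, GATK, STAR, Salmon and fastp are named per the submitters' processing notes. Versions, the tool that counted and whether it used strand: not given in the sources used here.

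Genes passing filterByExpr with the 4 groups (15104) were scaled by TMM and tested with edgeR 4.0.16 (robust quasi-likelihood, R 4.3.3) in an additive model of glucose and cariporide on all 12 libraries. A model with 1 mean per group gave the effect at each drug level and the interaction. P-values were adjusted by Benjamini and Hochberg over all tested genes, threshold 0.05. The script was tested on simulated data. Shares of counts were compared by exact permutation within drug levels (400 assignments). Precision is limited by 6 libraries at each glucose level and 18069004 to 24837409 counts in each.

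The comparison, the 34 gene lists, the 6 marker lists (1047 entries, 973 in the tables) and the named genes' rule were chosen with earlier results of these data known. The rule took TXNIP and ARRDC4; the 8 highest and 8 lowest log2 fold changes among called genes whose mean reached 5 CPM at 1 glucose level, with no overlap of the 6 and 6 CPM values and a proper symbol; from each list the called members of smallest p, at most 2; up to 6 genes called in the interaction; and up to 5 with the smallest p called at neither drug level. Other genes are named to account for a count, after their values were seen, some genes of the rule and the lists are not reported here, and their calls under each alternative are covered by the list counts alone.

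Coordinates and promoters are from RefSeq on GRCh38.p14, which held 14940 of the tested symbols (98.9%); exon overlap is from GENCODE 29, which held 67 of the 70 named genes. Alternatives were RLE size factors, library totals as scaling, no filter, a 5 CPM filter on means, DESeq2 1.42.0, limma-voom (limma 3.58.1), a replicate block, ribosomal RNA genes left out, their share added to the model, leaving out NG 1 and LGCAR 3, no drug factor, the mean of both contrasts, and each library left out. Fits to 6 libraries compared with each other, and shares with a library left out, were added after the data were seen. Groups of 3 were not tested for outliers. Plots: matplotlib 3.10.9 (Python 3.11.15).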

Additional observations from a re-analysis of the deposited data

Results flagged for a closer look

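The glucose effect on TXNIP differed between the drug levels by 0.96 on the log2 scale (edgeR interaction test, adjusted p = 0.00138).

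Single libraries stood apart from the other 5 at their glucose level in 6 of 146 sets of 6 tested by the gap relative to the range (4.11%, against about 1 in 20 by chance). ACSS2 was at 85.6 CPM in LGCAR 3 and at 75.7 to 78.9 CPM in the other libraries at 5 mM. In LG 3, NOP56 was at 113 CPM (others 93.8 to 101), PSAT1 at 122 CPM (others 105 to 108) and NPAS2 at 109 CPM (others 111.5 to 113). In NG 1, FOSB was at 8.24 CPM (others at 10 mM 4.72 to 5.75) and OXTR at 13.7 CPM (others 10.1 to 10.9). LG 3 and NG 1 thus hold 5 of the 6 values.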

How the results depend on the processing

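The additive model's 1592 calls came to 917 to 2734 with each library left out, and under the other settings stayed within 1.5 times of 1592, with 1156 (no drug factor) the lowest and 1829 (DESeq2) the highest. Replicate numbers do not pair the libraries: same-number correlations ran from -0.111 to 0.135, 2 of 18 were over 0.1, and 5 of 12 libraries correlated best with their own number; a replicate block gave 1279 calls in the additive model, 147 without and 135 with cariporide. Without cariporide, 261 calls became 586 with the ribosomal RNA covariate, 87 without NG 1 and LGCAR 3, 118 from 6 libraries alone and 83 to 466 with 1 library left out. With cariporide, 249 became 391 with no filter, 416 by DESeq2, 18 with the covariate, 55 without NG 1 and LGCAR 3 and 51 to 448 with 1 library left out; with library totals as scaling it was 351, of which 26.8% were higher. The interaction's 1 call became 2 with no filter, 5 by DESeq2, 0 with the covariate (edgeR), 2 without NG 1 and LGCAR 3 and 1 to 3 with 1 library left out. Causes were not tested, and fits with libraries left out also rest on fewer libraries. The difference in ribosomal RNA share stayed at 0.342 to 1.18 points and in mitochondrial share at -0.638 to -0.324 points. Of the 70 named genes, 64 kept their call and none changed sign under all settings; ACSS2, ATP5MC1, CDC25B, PYGB, RIGI and STAT2 did not, with adjusted p of 0.0503 to 0.106. Genes of lowest expression were called less often and at larger changes (median 0.578 on the log2 scale); depth itself was not varied.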
